A study of Mus musculus with 8 samples.

Results

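The effect of losing Cdx1 on mature medullary thymic epithelial cells (mTEC) was measured by comparing 3 Cdx1-/- with 3 Cdx1+/+ mTEC arrays, which are 6 of the 8 arrays of the series. The mice had a mixed C57BL/6 and 129 background. Per the labels, the sort took live cells that lacked the blood cell marker CD45, carried Epcam, bound the lectin UEA1 and showed high MHC class II and CD80. Each sample pooled 4 to 6 thymi, and the design text counts 3 independent replicates per group, so p-values measure the spread between these pools. The sources used here give neither the part of Cdx1 that the allele lacks nor the age and sex of the mice. The remaining pair of arrays, small intestine epithelium of 1 pool per genotype, was used only for reference.

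Mature mTEC transcribe a very large number of genes that otherwise belong to single organs and display the products to developing T cells, which is how T cells against the body's own proteins are removed or diverted. The protein Aire drives part of this program, and each single cell expresses only some of the genes, so a pool shows an average. Cdx1, a homeobox transcription factor of the caudal family, is best known for patterning the intestinal epithelium and the embryonic axis. The series compares ectopic gene expression in mTEC with and without it. The account here covers genes and functions other than the gut, Aire-dependent, liver, tuft cell and keratinocyte programs.

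Levels are given as log2 of the processed array intensity over the 75th percentile of the same array, so 0 is the brightness of the probe at that percentile. Differences are Cdx1-/- minus Cdx1+/+ on this log2 scale. They were tested with limma, and a gene passed when its 2-sided p, adjusted by the Benjamini-Hochberg method over all 24228 genes tested, was under 0.05. Between 58.6% and 63.5% of spots were well above background on the mTEC arrays, and log2 signals correlated by 0.994 to 0.996 among Cdx1+/+ arrays, 0.991 to 0.994 among Cdx1-/- arrays and 0.982 to 0.990 between genotypes. Cdx1-/- replicate 1 lies on the other slide, with the intestine arrays, and the other 5 mTEC arrays share slide 1.

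Cdx1 itself was lower but not lost in the Cdx1-/- pools. Its level was 5.88, 5.90 and 5.96 in Cdx1+/+ and 4.80, 4.98 and 5.00 in Cdx1-/- arrays, a fall by 0.99 (SE 0.09, limma adjusted p = 0.00369), and the genotypes did not overlap. No source used here places the probe against the deleted part, so this level is a limited check of the labels. Aire, the transcriptional regulator of mature mTEC, was at 3.32, 3.44 and 3.49 in Cdx1+/+ and 3.27, 3.42 and 3.46 in Cdx1-/- arrays, and these ranges overlapped (difference −0.03, limma adjusted p = 0.859). Cd80, the costimulatory ligand used in the sort, was at 1.74 to 1.93 and 1.64 to 1.79 (−0.13, limma adjusted p = 0.406). Of 19 mature mTEC genes tested, the chemokine gene Xcl1 fell by 0.97 (limma adjusted p = 0.0104) and the costimulatory ligand gene Cd86 rose by 0.35 (limma adjusted p = 0.0351). The Cd86 call was lost without any 1 of the 6 arrays, with an adjusted p of up to 0.104. The defining genes of the sorted cell type were therefore measured in both genotypes, and Aire and Cd80 did not pass.

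Markers of other cells that a thymic sort can carry moved in both directions or by little. The summed log2 level of B and plasma cell genes was 3.97 to 4.00 in Cdx1+/+ and 4.09 to 4.25 in Cdx1-/- arrays. Of 11 such genes tested, the kinase gene Blk (0.65) and the receptor chain gene Cd79b (0.56) rose, and the complement receptor gene Cr2 (−1.05) and the transcription factor gene Ebf1 (−0.63) fell. The Cd79b call was lost without Cdx1+/+ replicate 3 (limma adjusted p = 0.0545). For the other lists the summed ranges overlapped: 6.65 to 6.89 against 6.30 to 6.75 for dendritic cells and macrophages, 4.41 to 4.87 against 4.40 to 4.75 for thymocytes, 3.30 to 3.56 against 3.43 to 3.66 for endothelium, whose sum rests largely on the bright gene Vwf, 6.59 to 6.64 against 6.47 to 6.64 for mesenchyme, and 9.58 to 9.81 against 9.65 to 10.06 for cortical thymic epithelium. Single members still passed. Of 11 endothelial genes (median −0.24) the receptor gene Tie1 (−0.62) and the transcription factor gene Erg (−0.74) fell and Vwf (0.35) rose. With 1 array left out 0 to 2 of these fell and none rose. The mannose receptor gene Mrc1, at 1.49, 1.63 and 1.55 in Cdx1+/+ and 0.13, 0.21 and 0.04 in Cdx1-/- arrays, fell by 1.43 (limma adjusted p = 0.00196), while the lysozyme gene Lyz2 rose by 0.93 (limma adjusted p = 0.0039). In sorted bulk samples, fewer cells of a type and less RNA per cell cannot be told apart. The part of other cell types in the results below was not tested.

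Loss of Cdx1 went with many small differences and few large ones. Of the 24228 genes tested, 3137 (12.9%) passed, 1528 higher (6.31%) and 1609 lower (6.64%) in Cdx1-/- mTEC. At least a 2-fold difference was passed by 161 higher (0.665%) and 305 lower genes (1.26%). The median absolute log2 difference was 0.622 among genes that passed and 0.202 over all genes, beside median SDs of 0.133 in Cdx1+/+ and 0.138 in Cdx1-/- arrays. The arrays of the genotypes did not overlap for all 3137, nor for 38% of all genes tested. With 1 array left out the number that passed was 1250 to 1850, lowest without Cdx1+/+ replicate 3, and 1850 without Cdx1-/- replicate 1, which is the comparison within slide 1. Each of the 6 arrays moved the count by over 1.5 times. The plot of all genes tested places the differences against their p.

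**Figure D1:**
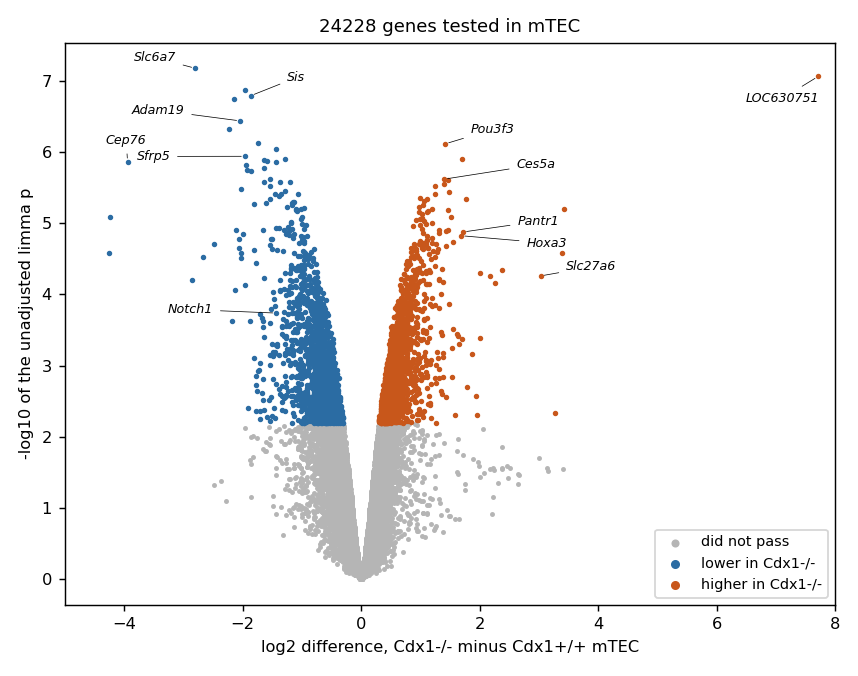
Log2 difference (Cdx1-/- minus Cdx1+/+ mTEC, x axis) against the negative log10 of the unadjusted limma p (y axis) for 24228 genes. Blue points fell (1609), orange points rose (1528) and grey points did not pass. The point at the far right, LOC630751, and Cep76 and Slc27a6 were well above background in 1 genotype only, so their fitted differences are not fold changes.

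The largest fitted falls were at Gm4841 and F830016B08Rik, beside Cdx1 and chosen after their values were seen. Gm4841 fell by 4.23 (SE 0.35, limma adjusted p = 0.00296), from 0.94, 0.79 and 0.95 to −3.82, −2.47 and −3.72. F830016B08Rik was well above background on no Cdx1-/- array and was at least 6.63-fold lower (limma adjusted p = 0.00395). Slc6a7, a brain proline transporter gene beside Cdx1 on chromosome 18, had the lowest p. Its level was 2.02, 2.06 and 2.04 in Cdx1+/+ and −0.67, −0.64 and −0.97 in Cdx1-/- arrays, a 6.96-fold fall (limma adjusted p = 0.000861). Sfrp5, which encodes a secreted inhibitor of Wnt ligands, was at 2.34, 2.48 and 2.36 against 0.22, 0.60 and 0.48, a 3.89-fold fall (log2 −1.96, SE 0.12, limma adjusted p = 0.00196). The Cdx1-/- arrays lay below every Cdx1+/+ array for Slc6a7 and Sfrp5, and within slide 1 Sfrp5 differed by −1.85.

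Golga7b, which encodes a partner of palmitoyl transferases, was at 2.47, 2.53 and 2.57 in Cdx1+/+ and 0.66, 0.93 and 0.77 in Cdx1-/- arrays, a 3.33-fold fall (limma adjusted p = 0.00196), and 2 of its probes passed. Spsb4, a gene for a substrate receptor of ubiquitin ligases, was at −1.11, −1.01 and −1.07 against −3.23, −2.80 and −2.99 and fell by 1.94 (limma adjusted p = 0.00204), again on 2 probes. Resp18, a gene of neuroendocrine secretory granules, fell by 1.77 (SE 0.18, limma adjusted p = 0.00472) from 2.49, 2.37 and 2.47 to 0.26, 0.98 and 0.78. The Cdx1-/- array on the other slide was the lowest of its group for Golga7b, Spsb4 and Resp18, and within slide 1 the differences were −1.67, −1.83 and −1.56. Smaller falls of low p included Gdf15, a stress-induced hormone gene, which fell from 4.34, 4.32 and 4.19 to 2.94, 3.1 and 2.93 (−1.29, SE 0.09, limma adjusted p = 0.00259), with no overlap. Hacl1, which encodes a peroxisomal enzyme of fatty acid alpha-oxidation, fell by 1.13 (limma adjusted p = 0.00345), and Hlf, a clock-controlled transcription factor gene, by 1.50 (limma adjusted p = 0.00387).

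Several tissues are represented among the named genes that rose. Pou3f3, which encodes a POU homeobox factor of brain and kidney, was at −3.78, −3.71 and −3.68 in Cdx1+/+ and −2.31, −2.36 and −2.25 in Cdx1-/- arrays, a rise of 1.42 (SE 0.08, limma adjusted p = 0.00196). Ces5a, a carboxylesterase gene of the epididymis, rose by 1.40 (SE 0.10, limma adjusted p = 0.0024) from −0.30, −0.55 and −0.39 to 0.98, 1.03 and 0.95, and 2 of its probes passed. Hspb3, a small heat shock protein gene of muscle, was at −1.98, −2.21 and −1.92 against −0.64, −0.88 and −0.65 (1.31, SE 0.12, limma adjusted p = 0.00341). None of these groups overlapped. Calml3, a calmodulin-like gene of stratified epithelium, rose by 1.25 (limma adjusted p = 0.00259), from 3.81, 3.64 and 3.82 to 5.01, 5.06 and 4.93. Paqr9, a gene of the progestin and adipoQ receptor family, rose by 1.43, the orphan adhesion receptor gene Adgrf4 by 1.12 and the beta-adrenergic receptor gene Adrb1 by 1.07. Pir, which encodes an iron-binding nuclear protein, rose by 1.00 (SE 0.07, limma adjusted p = 0.00266), from −0.64, −0.67 and −0.63 to 0.35, 0.33 and 0.35. All of these calls held when any 1 array was left out.

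The size of the largest rise could be read only as a bound. LOC630751, a predicted gene like interferon-inducible GTPase 1 whose probe has no position in the files, was chosen after its values were seen. It was well above background on 0 of 3 Cdx1+/+ arrays, all 3 Cdx1-/- arrays and neither intestine array, and was at least 52.1-fold higher in Cdx1-/- mTEC (limma adjusted p = 0.000861). Its level on the Cdx1-/- arrays was 0.90, 0.49 and 0.64. Such a bound sets the bright group against the lowest signal called above background on the dim arrays. In all, 32 genes that rose were above background on no Cdx1+/+ array and 122 that fell on no Cdx1-/- array. Such genes passed the brightness filter through 1 genotype only, which left 1 direction open to them. Of 1118 genes that passed it through Cdx1+/+ arrays only 142 fell, and of 238 through Cdx1-/- arrays only 60 rose. The fatty acid transport protein gene Slc27a6 was at least 3.9-fold higher and the centrosomal protein gene Cep76 at least 3.71-fold lower, and both lie within 10 Mb of Cdx1, as does F830016B08Rik.

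**Figure D2:**
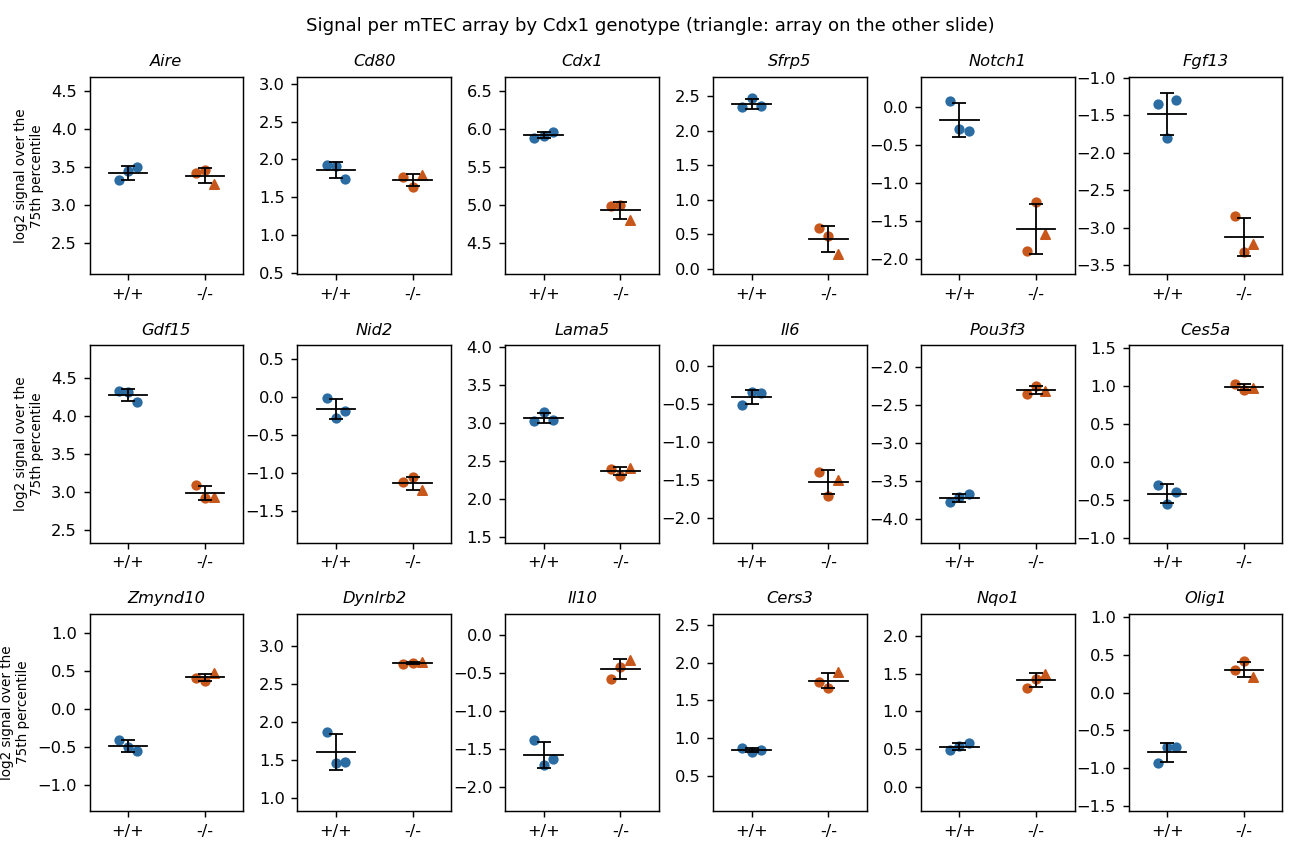
Level on each of the 6 mTEC arrays (y axis, log2 signal over the 75th percentile of the array) by Cdx1 genotype (x axis) for 18 genes. Points are pooled samples, long lines are means, whiskers are 1 SD and the triangle is the Cdx1-/- array on the other slide. Aire and Cd80 overlap between genotypes, the other 16 genes do not, and the triangle sits with the other Cdx1-/- arrays.

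Promoter sequence was compared with the motif TTTATNG on either strand, the letters that Cdx proteins are known to prefer, in the 250 bases before the RefSeq start of each gene (build GRCm38.p6). The motif overlaps the TATA box in its letters, since CTATAAA holds TATAAA. Of genes that fell at least 2-fold, 33 of the 166 with a promoter in the table held it (19.9%), and of genes that rose at least 2-fold 12 of 81 did (14.8%). The share was 11% among smaller falls, 9.42% among smaller rises, 8.6% among genes that did not pass, 8.96% over all 14149 genes tested with a promoter and 9.81% over all 32851 promoter windows. GC content moved with these groups, with medians of 51.4% and 46.4% for the large falls and rises and 58.0% for genes that did not pass. Whether base composition accounts for the shares was not tested, and a match is a string of letters and not a bound site. The 15 genes of largest fall and the 15 of largest rise were taken among ordinary gene symbols well above background on all 6 mTEC arrays. Of these, 10 in each direction had a promoter in the table and 2 and 2 had a match, and these 4 promoters are shown with the match in capitals, 5′ to 3′ on the strand of the gene. Sis is the sucrase-isomaltase gene of the gut brush border, with its match 52 bases before the start (chr3:72967864-72968113, minus strand):
Sis: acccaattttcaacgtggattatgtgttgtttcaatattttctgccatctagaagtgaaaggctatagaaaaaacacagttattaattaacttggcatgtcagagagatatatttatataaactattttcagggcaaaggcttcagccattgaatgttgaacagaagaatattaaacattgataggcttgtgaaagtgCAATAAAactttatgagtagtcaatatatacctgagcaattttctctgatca
Ceacam18, a gene of the carcinoembryonic antigen family, fell by 1.81 and has its match 113 bases before the start (chr7:43634489-43634738, plus strand):
Ceacam18: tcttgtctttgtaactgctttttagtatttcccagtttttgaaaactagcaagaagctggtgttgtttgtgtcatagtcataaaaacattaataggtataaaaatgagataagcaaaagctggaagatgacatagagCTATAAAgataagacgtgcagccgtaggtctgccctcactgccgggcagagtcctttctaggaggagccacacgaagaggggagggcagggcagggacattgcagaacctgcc
Hspb3 has its match 12 bases before the start (chr13:113663677-113663926, minus strand):
Hspb3: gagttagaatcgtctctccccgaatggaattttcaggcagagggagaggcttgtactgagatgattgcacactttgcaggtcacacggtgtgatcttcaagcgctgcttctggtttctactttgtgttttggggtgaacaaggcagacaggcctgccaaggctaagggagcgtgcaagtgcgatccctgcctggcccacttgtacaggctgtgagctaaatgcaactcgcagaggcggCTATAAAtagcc
Aadacl2fm1, a gene of the arylacetamide deacetylase family, rose by 1.28 and has its match 215 bases before the start (chr3:59924964-59925213, plus strand):
Aadacl2fm1: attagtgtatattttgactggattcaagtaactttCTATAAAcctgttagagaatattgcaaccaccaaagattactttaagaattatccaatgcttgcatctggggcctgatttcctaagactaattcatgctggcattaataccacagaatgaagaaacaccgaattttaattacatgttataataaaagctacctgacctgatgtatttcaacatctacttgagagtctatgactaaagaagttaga
The matches of Ceacam18, Hspb3 and Aadacl2fm1 read CTATAAA, which holds the letters TATAAA, and that of Sis reads CAATAAA. Whether any of them acts as a TATA box was not tested. Both directions of change are represented.

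Genes of the machinery that every cell runs seldom passed. The lists joined here were cytosolic and mitochondrial ribosome, respiratory chain, proteasome, splicing, glycolysis, citric acid cycle and protein folding. Of their 376 genes tested 6 rose and 1 fell (1.86%, against 12.9% of all genes). Their median absolute difference was 0.087, beside 0.202 over all genes. None of 77 cytosolic ribosomal protein genes and none of 76 respiratory chain genes passed. Transcription factor families passed more often, with 30 higher and 45 lower of 329 (22.8%). Of 66 developmental ligand genes 5 rose and 13 fell (27.3%, median −0.26), and of 106 extracellular matrix genes 5 rose and 24 fell (27.4%, median −0.22). With 1 array left out these groups had 19 to 30, 5 to 12 and 9 to 16 falls, the fewest without Cdx1+/+ replicate 3 for the first and second and Cdx1+/+ replicate 1 for the matrix genes. Rises numbered 13 to 18, 2 to 3 and 1 to 3, fewest without Cdx1-/- replicate 3, Cdx1+/+ replicate 2 and Cdx1-/- replicate 3. These are descriptions: the lists were drawn up with results of these data known, and no list was tested as a set.

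**Figure D3:**
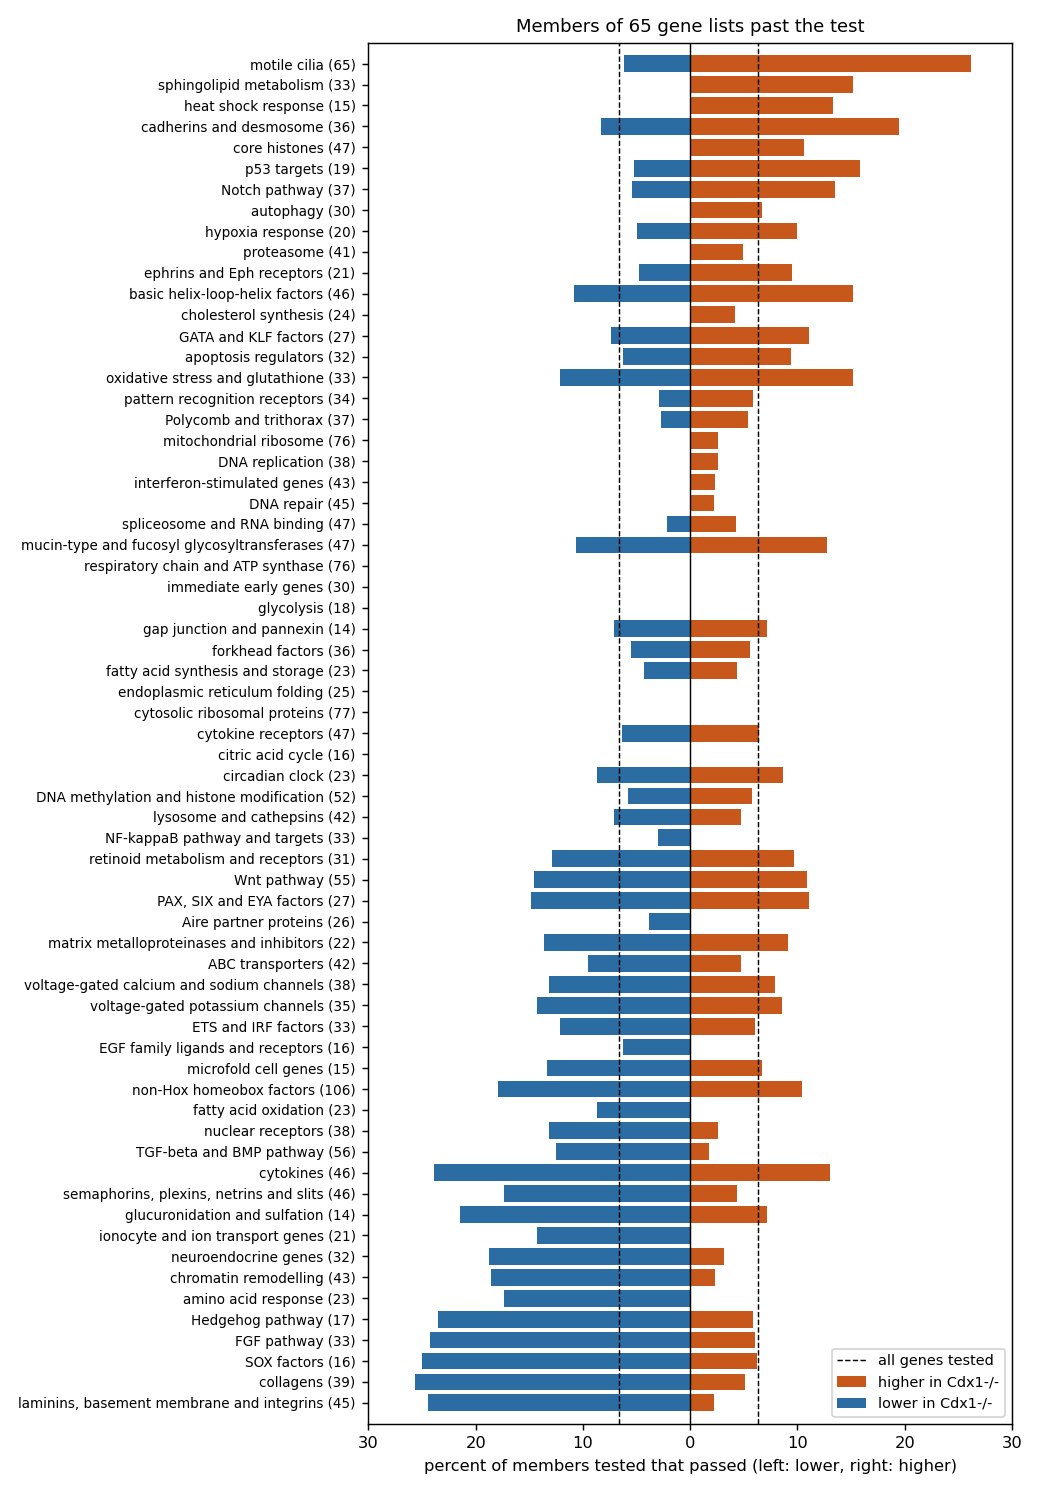
Share of tested members that passed in each of 65 gene lists, to the left for lower and to the right for higher in Cdx1-/- mTEC (x axis, percent; list names with numbers tested on the y axis). Dashed lines mark the shares of all genes tested, 6.64% lower and 6.31% higher. Motile cilia stand at the top with 17 of 65 higher, and laminins, basement membrane and integrins at the bottom with 11 of 45 lower.

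Motile cilia, the beating organelles of airway and ependymal cells, were the list with the most members higher. Of 65 genes, 17 rose and 4 fell (32.3%, median 0.16). Zmynd10, an assembly factor for dynein arms, rose by 0.90 (SE 0.08, limma adjusted p = 0.00372), from −0.41, −0.50 and −0.56 to 0.47, 0.40 and 0.37. Dynlrb2, a dynein light chain gene, rose by 1.17 (SE 0.13, limma adjusted p = 0.00523), from 1.87, 1.46 and 1.47 to 2.79, 2.76 and 2.77. In both, all Cdx1-/- arrays lay above all Cdx1+/+ arrays and close to one another. The axonemal genes Cfap52 (0.76) and Lrrc23 (0.80, both limma adjusted p = 0.00595) and the tektin gene Tekt1 (0.59, limma adjusted p = 0.0124) rose as well. The genes that fell were Ak8, Dnaic2, Dnah2 and Hydin, by 0.35 to 0.45.

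The regulators that switch on this program did not pass, although some did with the replicate number as a block. Foxj1, the forkhead factor of ciliated cells, was at 1.27, 1.39 and 1.52 in Cdx1+/+ and 1.17, 1.05 and 1.10 in Cdx1-/- arrays and did not pass (−0.28, limma adjusted p = 0.101). Gmnc (−0.36) and Rfx3 (0.16) did not pass either. Rfx2 (−0.35, limma adjusted p = 0.134) and Ccno (0.45, limma adjusted p = 0.0551) passed only with the replicate block (limma adjusted p = 0.0465 and 0.0469) and, for Ccno, with a strict filter on dim probes or without Cdx1+/+ replicate 3. Mcidas, the multiciliation regulator, had levels of 3.23, 3.92 and 3.63 against 2.18, 2.84 and 3.00 (−0.92, limma adjusted p = 0.0641). These groups do not overlap, and Mcidas was called lower with the replicate block (limma adjusted p = 0.0243), with normexp (0.0491) and in the authors' deposited table (0.0493). With any 1 array left out, 8 to 11 cilia genes rose and at most 1 fell, the fewest rising without Cdx1-/- replicate 3, and within slide 1 the counts were 11 and 0.

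**Figure D4:**
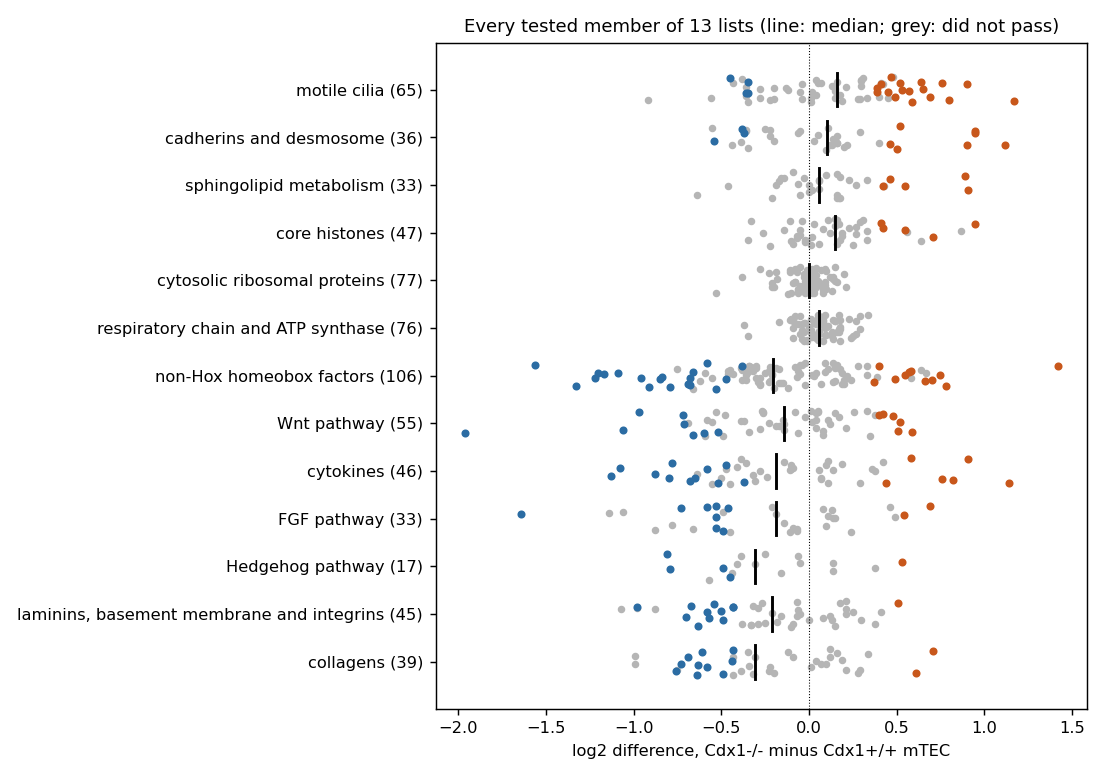
Log2 difference (Cdx1-/- minus Cdx1+/+ mTEC, x axis) of every tested member of 13 gene lists (y axis, number tested in brackets). Each point is a gene, orange where it rose, blue where it fell and grey where it did not pass, and the black line is the median of the list. Motile cilia have a median of 0.16, cytosolic ribosomal proteins lie close to 0, and collagens have a median of −0.31.

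Among basement membrane and collagen genes that passed, most fell. Of 45 genes for laminins, other basement membrane proteins and integrins 11 fell, 1 rose and the rest did not pass, and of 39 collagen genes 10 fell and 2 rose (26.7% and 30.8% passed, medians −0.21 and −0.31). Nid2, which encodes the linker nidogen-2, was at −0.01, −0.28 and −0.18 in Cdx1+/+ and −1.23, −1.12 and −1.06 in Cdx1-/- arrays and fell by 0.98 (SE 0.10, limma adjusted p = 0.00501). Lama5, the main laminin alpha chain of epithelial basement membranes, fell by 0.70 (SE 0.08, limma adjusted p = 0.00633), from 3.02, 3.14 and 3.03 to 2.40, 2.39 and 2.30. Col17a1, the hemidesmosomal collagen gene, fell by 0.63 (SE 0.09, limma adjusted p = 0.0094), from 1.05, 1.02 and 0.94 to 0.27, 0.43 and 0.42. None of the 3 overlapped between genotypes.

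The laminin chain genes Lamb3 (−0.57) and Lama4 (−0.67) fell too, as did the fibrillar and cartilage collagen genes Col5a3 (−0.61) and Col9a2 (−0.64). The interstitial collagen genes of fibroblasts, Col1a1 (−0.09, limma adjusted p = 0.606) and Col3a1 (0.12, limma adjusted p = 0.425), did not pass. Markers of vessels moved unevenly. Pdgfrb, the receptor gene of pericytes and a neighbour of Cdx1, fell by 0.79 (limma adjusted p = 0.00934). Other pericyte genes, Rgs5 (0.08), Cspg4 (0.22) and Acta2 (−0.37), did not pass. The endothelial genes Tie1 and Erg fell by 0.62 and 0.74, while Vwf rose. The other 8 endothelial genes tested did not pass on the probe used, from −0.57 for Cldn5 to 0.27 for Pecam1. For the receptor gene Kdr the probe used was at −0.45 (limma adjusted p = 0.301). In a fit of all probes, 1 of the 2 Kdr probes passed as lower. The part of vessel cells in the falls of matrix genes was not tested. With any 1 array left out, 4 to 7 genes fell in each of the laminin and collagen lists, the fewest laminin genes without Cdx1+/+ replicate 1 and the fewest collagen genes without Cdx1+/+ replicate 3.

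Of 36 cadherin and desmosome genes 7 rose and 3 fell (27.8%, median 0.10), while of 14 gap junction and pannexin genes 1 rose and 1 fell. Dsg3, the desmoglein of stratified epithelium, was at −2.74, −2.58 and −3.04 in Cdx1+/+ and −1.85, −1.72 and −1.94 in Cdx1-/- arrays, a rise of 0.95 (limma adjusted p = 0.0101). Cdh2, which encodes N-cadherin, rose by 0.90 (limma adjusted p = 0.0112) from 0.98, 0.65 and 0.60 to 1.49, 1.67 and 1.76. With any 1 array left out 5 to 7 of the cadherin and desmosome list rose and 0 to 2 fell, the fewest falls without Cdx1+/+ replicate 3.

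Cytokine genes changed often and in both directions. Of 46 tested, 6 rose and 11 fell (37.0%, median −0.19). Il6, an inflammatory cytokine gene, fell by 1.13 (SE 0.11, limma adjusted p = 0.00395), from −0.51, −0.35 and −0.36 to −1.50, −1.40 and −1.71. Il10, an anti-inflammatory one, rose by 1.14 (SE 0.12, limma adjusted p = 0.00502), from −1.38, −1.71 and −1.63 to −0.32, −0.58 and −0.42. The groups of both genes were apart on all 6 arrays. Il23a, a subunit gene of interleukin 23, fell by 1.08 (limma adjusted p = 0.00858), from 2.96, 3.20 and 2.75 to 1.72, 2.05 and 1.88. Csf1, the macrophage growth factor gene, fell by 0.80 (limma adjusted p = 0.0118), and Il1f9, an interleukin 36 gene of squamous epithelium, rose by 0.91 (limma adjusted p = 0.00387). Of 43 interferon-stimulated genes 1 rose, and of 33 NF-kappaB pathway genes 1 fell. Of 47 cytokine receptor genes 3 rose and 3 fell (12.8%), close to the share of all genes. With 1 array left out 2 to 4 cytokine genes rose and 3 to 9 fell, the fewest falls without Cdx1+/+ replicate 1 and the fewest rises without Cdx1+/+ replicate 3.

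Developmental pathways differed in how many of their genes passed. In the Wnt pathway 6 of 55 rose and 8 fell (25.5%), or 1 to 4 and 6 to 8 with 1 array left out, the fewest rises without Cdx1+/+ replicate 3. Beside Sfrp5, the ligand genes Wnt8b (−0.72, limma adjusted p = 0.0089) and Wnt11 (−0.60) and the secreted inhibitor genes Dkk2 (−1.06, limma adjusted p = 0.0101) and Dkk1 (−0.66) fell, and the ligand gene Wnt10a rose by 0.59 (limma adjusted p = 0.0104). Both activators and inhibitors are among the genes that fell. In the FGF pathway 2 of 33 rose and 8 fell (30.3%), or 2 to 8 falls with 1 array left out, the fewest without Cdx1+/+ replicate 3. Fgf13, an intracellular member that binds sodium channels, was at −1.35, −1.80 and −1.29 in Cdx1+/+ and −3.21, −2.84 and −3.32 in Cdx1-/- arrays and fell by 1.64 (SE 0.18, limma adjusted p = 0.00566). Etv4, a transcription factor gene that FGF signals induce, fell by 0.73 (limma adjusted p = 0.0086), while Fgf14 rose by 0.69 (limma adjusted p = 0.0119).

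Notch1 was the receptor gene with a large fall. It was at 0.09, −0.29 and −0.31 in Cdx1+/+ and −1.67, −1.89 and −1.24 in Cdx1-/- arrays, a difference of −1.43 (SE 0.19, limma adjusted p = 0.00868), with no overlap. Of 37 Notch pathway genes 5 rose and 2 fell (18.9%), but with 1 array left out 0 to 3 rose and 1 to 2 fell, the fewest of each without Cdx1+/+ replicate 3, and within slide 1 the counts were 1 and 2. In the TGF-beta and BMP pathway 1 of 56 rose and 7 fell (14.3%, close to the 12.9% of all genes), with 3 to 5 falls when 1 array was left out, lowest without Cdx1+/+ replicate 3. They include the ligand gene Bmp3 (−0.91, limma adjusted p = 0.00787) and Smad4, the signal mediator that all branches share (−0.54, limma adjusted p = 0.0104). Areg, the EGF family ligand amphiregulin, was the sole call among 16 EGF family genes and fell by 1.18 (limma adjusted p = 0.00501), from 0.35, 0.13 and 0.13 to −1.08, −0.75 and −1.09.

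Transcription factors of many lineages changed, in both directions within 1 family. Of 106 homeobox genes outside the Hox clusters 11 rose and 19 fell (28.3%, median −0.21), or 5 to 8 and 8 to 14 with 1 array left out, the fewest rises without Cdx1+/+ replicate 2 and the fewest falls without Cdx1+/+ replicate 3. Pou4f1 and Pou4f2, which specify sensory neurons, fell by 1.22 (limma adjusted p = 0.0033) and 1.20 (limma adjusted p = 0.00608), while Pou3f3, the heart gene Irx4 (0.70, limma adjusted p = 0.00666) and the pluripotency gene Pou5f1 (0.78, limma adjusted p = 0.0114) rose. Of 46 basic helix-loop-helix genes 7 rose and 5 fell (26.1%). Olig1, of the oligodendrocyte lineage, rose by 1.09 (SE 0.10, limma adjusted p = 0.00372), from −0.93, −0.72 and −0.72 to 0.20, 0.30 and 0.41, and Hand1, of heart and placenta, fell by 1.47 (SE 0.18, limma adjusted p = 0.00739), from 0.23, 0.67 and 0.34 to −1.34, −0.74 and −1.09. The endoderm factor gene Gata4 fell by 1.20 (limma adjusted p = 0.00525), from 0.25, 0.72 and 0.39 to −0.74, −0.76 and −0.73, and the nuclear receptor gene Hnf4g by 0.88 (limma adjusted p = 0.0102). Of 328 zinc finger genes with the Zfp symbol 15 rose and 5 fell (6.1%), below the share of all genes.

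Enzymes of detoxification and lipid metabolism moved gene by gene. Nqo1, a quinone reductase gene induced by oxidants, rose by 0.87 (SE 0.09, limma adjusted p = 0.00416), from 0.49, 0.54 and 0.58 to 1.49, 1.31 and 1.43, and the glutathione transferase gene Gsta4 by 0.91 (limma adjusted p = 0.00806). Hmox1 (0.82, limma adjusted p = 0.175) and Gclc (−0.06, limma adjusted p = 0.741), which the same stress pathway induces, did not pass. Gstt2 (0.51), Mgst1 (0.54) and the transcription factor gene Nfe2l2 (0.31, limma adjusted p = 0.0475) rose. The Nfe2l2 call was lost without any 1 of the 6 arrays. Gstm1 (−0.44), Gstm2 (−0.44), Gstm3 (−0.67) and Cat (−0.52) fell. The Gstm1 call was also lost without any 1 of the 6 arrays (limma adjusted p up to 0.0881), and the Cat call in 5 of these 6 fits. Gstm3 was lost only without Cdx1+/+ replicate 3 (limma adjusted p = 0.0512). In the list of 33 genes 5 rose and 4 fell (27.3%), or 2 to 4 and 0 to 2 with 1 array left out, the fewest of each without Cdx1+/+ replicate 3. The sulfotransferase gene Sult1c2 rose by 1.04 (limma adjusted p = 0.00266), from 3.09, 3.01 and 3.12 to 4.14, 4.07 and 4.12, and the glucuronosyltransferase gene Ugt2b34 fell by 1.41 (limma adjusted p = 0.00387). Of 33 sphingolipid genes 5 rose and 0 fell (15.2%, near the 12.9% of all genes). Cers3, the ceramide synthase of skin barrier and testis, rose by 0.91 (SE 0.09, limma adjusted p = 0.00387), from 0.88, 0.82 and 0.85 to 1.87, 1.74 and 1.67, and Sptlc3, a subunit gene of the enzyme that starts sphingolipid synthesis, by 0.89 (limma adjusted p = 0.00419). With 1 array left out 2 to 4 of this list rose, fewest without Cdx1+/+ replicate 3.

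Neuroendocrine genes fell more often than they rose, with 1 of 32 higher and 6 lower (21.9%). Slc18a1, the vesicular monoamine transporter of endocrine cells, fell by 1.05 (SE 0.10, limma adjusted p = 0.00372), from 1.27, 1.07 and 1.23 to 0.11, 0.25 and 0.06, and the prohormone convertase gene Pcsk2 by 0.72 (limma adjusted p = 0.0125). With 1 array left out 2 to 4 fell, fewest without Cdx1+/+ replicate 2. Among 73 channel genes 6 rose and 10 fell (21.9%), or 3 to 4 and 4 to 7 with 1 array left out, the fewest rises without Cdx1+/+ replicate 1 and the fewest falls without Cdx1+/+ replicate 3. The muscle calcium channel subunit gene Cacng1 rose by 1.04 (limma adjusted p = 0.00481), the potassium channel gene Kcnh8 rose by 0.90 (limma adjusted p = 0.00566), and the calcium channel subunit gene Cacna2d1 fell by 0.86 (limma adjusted p = 0.00566). Of 47 core histone genes 5 rose and 0 fell (10.6%, below the 12.9% of all genes), H2bc6 with the lowest p (0.95, limma adjusted p = 0.00411), or 1 to 4 with 1 array left out, fewest without Cdx1+/+ replicate 3.

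Among 15 gene families counted by symbol, serpins passed most often and F-box genes least often. Of 57 serpin genes, which encode protease inhibitors, 9 rose and 11 fell (35.1%), and of 360 solute carrier genes 26 rose and 48 fell (20.6%). Of 57 genes with the Gpr symbol, orphan receptors, 8 rose and 2 fell. Of 68 genes with the Fbx symbol, ubiquitin ligase subunits, 1 rose (1.47%). By transcript class, 14.3% of 16938 protein-coding genes, 17.9% of 776 long noncoding RNA genes and 8.24% of 2475 probes for intergenic noncoding regions passed.

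Neighbouring genes often moved together, a pattern looked for after the data were seen. Protein-coding genes were ordered by their probes on mm9, and each gene was paired with the next within 100 kb, leaving out pairs with the same symbol stem, which left 10244 pairs. Related genes with unlike symbols, such as Fga and Fgb, stayed in. Of 1349 neighbours of genes that fell, 14.4% fell and 3.56% rose. Of 1297 neighbours of genes that rose, 14.6% rose and 3.7% fell, and of 17842 neighbours of genes that did not pass, 6.2% fell and 5.94% rose. In 240 pairs both genes passed, of which 95 were both higher and 97 both lower. Within slide 1, 12.5% of neighbours of genes that fell were lower and 7.19% of neighbours of genes that rose were higher, against 4.51% and 3.76% of all these genes in that fit.

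**Figure D5:**
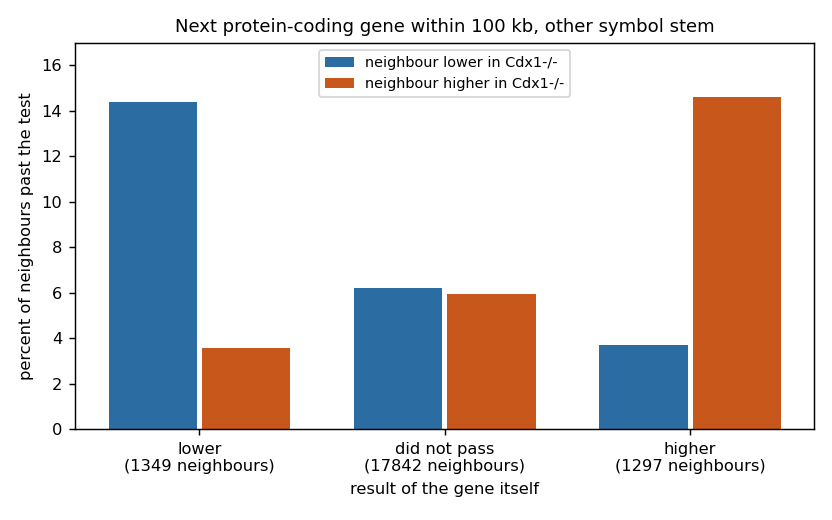
Percent of neighbouring genes that fell (blue) or rose (orange) in Cdx1-/- mTEC (y axis), by the result of the gene itself (x axis, with the number of neighbours). Bars are shares over neighbours within 100 kb with another symbol stem. The blue bar is highest beside genes that fell (14.4%) and the orange bar beside genes that rose (14.6%).

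Both places below were chosen after their values were seen. The first, on chromosome 19, is a pair of the kind counted above. The place on chromosome 1 sets a protein-coding gene beside noncoding probes, which those counts left out. On chromosome 19 Sfrp5 (probe chr19:42272509-42272568, mm9) and Golga7b (chr19:42344777-42344836, mm9) lie 72.3 kb apart and fell by 1.96 and 1.74. Zfyve27, the gene before Sfrp5, did not pass (−0.12, limma adjusted p = 0.355), and neither did Crtac1 beyond Golga7b (−0.43, limma adjusted p = 0.0678), while Avpi1, 74.6 kb before Sfrp5, rose by 0.55 (limma adjusted p = 0.0107). The fall was seen at these 2 genes and did not pass at those on either side.

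On chromosome 1 the noncoding RNA gene Pantr1 (probe chr1:42705111-42705170, mm9) lies 51 kb before the probe of Pou3f3 (chr1:42756099-42756158, mm9). Pantr1 rose by 1.72 (SE 0.15, limma adjusted p = 0.0034), from 1.63, 1.44 and 1.92 to 3.50, 3.18 and 3.47, beside the rise of 1.42 in Pou3f3. A probe for an intergenic noncoding region 3.12 kb after Pou3f3 was above background on no Cdx1+/+ array and on all 3 Cdx1-/- arrays and was at least 1.91-fold higher. A region probe 6.91 kb before Pou3f3 did not pass (0.26, limma adjusted p = 0.524). Of the probes further on, Mrps9 200 kb away (0.17, limma adjusted p = 0.338) and Tgfbrap1 348 kb away (−0.06, limma adjusted p = 0.839) did not pass, and a probe with no gene symbol 300 kb away fell by 0.66 (limma adjusted p = 0.0335).

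Detection in the intestine arrays differed with the size of the change. Of the 305 genes that fell at least 2-fold, 44.9% were well above background on both intestine arrays and 20.3% were at least 8-fold brighter there than in mTEC. Of the 161 that rose at least 2-fold, 23.0% were detected on both and 2.48% were 8-fold brighter, beside 70.9% and 3.26% of genes that did not pass. Among changes under 2-fold the order was the other way, with 46.8% of genes that fell and 62.1% of genes that rose detected on both. Of those that fell at least 2-fold, 47.2% were above background on neither intestine array. The 8-fold comparison used the mean mTEC level of both genotypes. A fall lowers that mean and a rise raises it, so the 8-fold shares depend partly on the change itself.

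Genes beside Cdx1 passed at a higher share than elsewhere. Within 10 Mb of its probe 15 of 141 genes were higher and 21 lower (25.5%), against 14.2% of 450 on the rest of chromosome 18. The mice have a mixed background, and sequence carried along with the Cdx1 allele and the loss of Cdx1 cannot be told apart there.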

How the data were processed

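Per the labels a service company extracted and labelled the RNA. The 1-colour arrays were read with Agilent Feature Extraction 10.7.3.1, per the file headers. The deposited files hold processed spot intensity, background-subtracted within each array by the authors' software with no normalization between arrays, per the file headers. The authors' deposited value table holds the same intensity multiplied by a constant for each array, on a linear scale. On every array the median of these values over the spots that are not controls was 1, so the constant scaled each array to that median. No source used here describes this step. Positions of probes come from the files (mm9).

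Of 59305 spots, 55669 probes were used after outlier flags were removed. Intensities were put on the log2 scale and each array's 75th percentile was subtracted. For each gene the brightest probe was used, out of the probes that at least 2 arrays of 1 genotype measured well above background. Names came from RefSeq accessions for 27500 probes and otherwise from names in the files. Genotypes were tested by lmFit and eBayes of limma 3.58.1, run in R 4.3.3, with matplotlib 3.10.9, pandas 2.3.3 and data.table (version 1.17.8), and the scripts were tested on simulated data. Of the genes tested, 1118 passed the brightness filter through Cdx1+/+ arrays only and 238 through Cdx1-/- arrays only, so these could show a difference in 1 direction only. The number of arrays limits the precision.

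Replicate numbers come from the sample titles. Deviations of same-numbered samples from their group means correlated by 0.323, 0.148 and 0.148, against −0.222 to 0.0561 for other pairs, so the numbers were taken to pair the samples, and a fit with the number as a block was an alternative. The 75 gene lists hold 2678 entries, of which 2650 are on the array. Members and lists were chosen with earlier results of these data known. Named genes are the largest and most significant in each direction, those with bounds, and the 3 of smallest p in each list. Col1a1, Col3a1, Ccno, Csf1, Dkk1, F830016B08Rik, Foxj1, Gclc, Gm4841, Gmnc, Hmox1, Il23a, Irx4, Lama4, Mcidas, Pou4f2, Pou5f1, Rfx2, Rfx3, Tekt1, Wnt10a, Wnt11 and the neighbours of Sfrp5 and Pou3f3 were added after their values were seen, for their known roles or size. So were Cat, Cldn5, Cspg4, Gstm1, Gstm2, Gstm3, Mgst1, Nfe2l2, Pecam1 and Rgs5.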

Additional observations from a re-analysis of the deposited data

Results flagged for a closer look

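For 9 of the genes named by the rule the intestine pair, 1 array per genotype, lay the other way from the mTEC arrays by more than 1 on the log2 scale. These differences between tissues were not tested. The intestine pair also differed at sex-linked genes. The X-linked gene Xist was at 0.87 in Cdx1+/+ and −5.59 in Cdx1-/- intestine. The Y-linked genes went the other way, Ddx3y from −5.79 to 0.93 and Eif2s3y from −5.98 to 2.11. Sex and genotype therefore cannot be told apart in this pair. The array labelled Cdx1-/- was higher than the one labelled Cdx1+/+ for genes that fell in Cdx1-/- mTEC: Areg by 2.02, Ceacam18 by 1.79, Cdx1 by 1.61, Lamb3 by 1.41, Tlr12 by 1.38, Npas2 by 1.05 and Xcl1 by 1.01. For genes that rose in Cdx1-/- mTEC the intestine difference was −1.16 for the sulfotransferase gene Sult1c2 and −1.11 for Rgs13, a regulator of G protein signalling, whose call in mTEC was lost without Cdx1+/+ replicate 2 (limma adjusted p = 0.0513). In intestine Cdx1 itself is brighter on the array labelled Cdx1-/-, so the direction of all 9 intestine values rests on a label that the level of Cdx1 goes against.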

How the results depend on the processing

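The number of genes past the test in mTEC, 3137, was 1977 with normexp background correction, 1326 with no filter on dim probes, 1774 with slide as a block over all 8 arrays and 1850 within slide 1. It was 1250 to 1850 with 1 array left out. With the replicate number as a block 3476 genes passed, and of the 270 named genes past the test 17 no longer did. Of those 270, 162 passed in every fit with 1 array left out. The number of genes past the test and at least 2-fold apart in mTEC, 466, was 176 with normexp and 369 to 501 with 1 array left out. A sign turned for 1 named gene, that of the olfactory receptor gene Olfr609, at −0.04 with normexp. Neither quantile normalization nor the authors' deposited table moved a count by over 1.5 times. The causes of these differences were not tested.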

Other observations

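The glucosidase gene Gaa was the only gene of 226 with 2 or more probes past the test whose probes disagreed in direction. On chromosome 11 (mm9) its probe at chr11:119134572-119134631 fell by 0.64 (limma adjusted p = 0.029), the probe at chr11:119136014-119136073 rose by 0.85 (limma adjusted p = 0.0124), and the probe at chr11:119146697-119146756 did not pass (0.21, limma adjusted p = 0.18). Of 4896 genes with 2 or more probes tested, 826 had at least 1 that passed.

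Other neighbouring genes that both changed at least 2-fold in 1 direction included Ctcfl, a testis paralog of the insulator protein CTCF. It lies 65.2 kb from the gluconeogenic enzyme gene Pck1 (−1.20 and −1.64). Further examples were the fibrinogen chain genes Fga and Fgb (−1.07 and −1.17), the guanylin genes Guca2a and Guca2b (−1.19 and −1.27), and Hoxa2 with Hoxa3 (1.19 and 1.69). The guanylin and Hox pairs share a symbol stem, the kind left out of the counts of neighbours. So do most of the pairs not named here. The Fga call was lost with normexp background correction (limma adjusted p = 0.08). These pairs were chosen after their values were seen.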
